A study of Mus musculus with 12 samples.

Results

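The comparison described here sets 2 doses of ionising radiation against each other at the same time after exposure. MODE-K cells, an established line of mouse small intestinal epithelium of wild type genotype, received gamma rays from a 60Co source, at 4 Gy or 12 Gy, and were harvested 48 h later. Each dose is represented by 3 RNA sequencing libraries, so 6 of the 12 libraries of the series enter the contrast, and the members were chosen by their labelled dose and harvest time. The other 6 libraries are an unirradiated control collected at 0 h (0 Gy, 3 libraries) and cells harvested 24 h after 12 Gy (3 libraries), which entered the low-count filter, the scaling and the estimate of the spread between libraries, and the control also serves the contrasts against control given below. Because the control was not kept for 48 h, no 48 h sample without radiation exists in these groups, and values of the control are given as a 0 h reference. Per the labels each dose had 3 groups run in parallel, and nothing says that these were separate cultures, so a p-value here measures the spread between libraries, which may be technical. In bulk RNA, fewer cells of a kind and less RNA per cell cannot be told apart. The series is titled as a study of how pyroptosis is regulated in irradiated intestinal cells.

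Gamma rays break DNA and form reactive oxygen species. In cells with working p53, DNA breaks stabilise this transcription factor, which drives Mdm2, its own inhibitor, and Cdkn1a, an inhibitor of cyclin-dependent kinases. Days after exposure, DNA in micronuclei and other nucleic acids in the cytosol can engage sensors that lead to interferon and to interferon-stimulated genes, while oxidants release NRF2, the transcription factor of the antioxidant response. Pyroptosis is a lytic, inflammatory form of cell death in which caspases cut gasdermins, whose fragments open pores in the plasma membrane.

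Expression was read as counts per gene, and levels are given as CPM (assigned reads divided by library size, after TMM scaling over all genes). CPM is not corrected for gene length, so levels were compared between libraries and not between genes. The 6 libraries held 3616416 to 4026800 assigned reads. Loci without a reference gene took 15.1 to 16.9% of the reads at 4 Gy and 14.0 to 15.1% at 12 Gy. The label of small intestinal epithelium was checked against its markers. Of 23 epithelial markers, 5 had no read in the 6 libraries (Cldn3, Cldn7, Ocln, Dsp and Cdx1) and 5 passed the filter on low counts (Krt7, Krt18, Krt20, Jup and Tjp1). Epcam had 1 read and Cdh1 no read over the 3 libraries at 4 Gy, and 1 and 2 reads at 12 Gy. None of 18 markers of intestinal lineages passed the filter, among them Lgr5, Muc2 and Olfm4, which had no read. Of 20 fibroblast and mesenchymal markers 14 had reads in all 6 libraries, while Thy1, Lum and Postn had none. Vim, a mesenchymal filament, stood at 1139, 1429 and 996 CPM at 4 Gy and at 1247, 1141 and 1603 CPM at 12 Gy. Of the 23 epithelial markers 7 had reads in all 6 libraries. Among them were Elf3 (11 reads at 4 Gy, 15 at 12 Gy) and Cdx2 (18 and 12). Epcam, Cdh1, Ocln and the claudins on the list were at or near 0 in these libraries, at both doses.

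Each gene was tested with edgeR's quasi-likelihood test, and a gene was called at a Benjamini-Hochberg adjusted p under 0.05. A log2 fold change above 0 means higher at 12 Gy, and ± after a log2 fold change is its standard error. With all 15086 tested genes scaled together, 331 were called higher at 12 Gy (2.19%) and 376 lower (2.49%). Among the 9809 known genes in that fit, 274 were called higher (2.79%) and 152 lower (1.55%). Among 4898 loci without a reference gene, 46 were called higher (0.939%) and 218 lower (4.45%). When the 9816 known genes that passed the filter on their own were scaled alone, 286 were called higher (2.91%) and 316 lower (3.22%). The split between higher and lower calls therefore depended on the scaling: 64.3% of known-gene calls were higher in the fit to all genes and 47.5% in the fit to known genes alone. The median log2 fold change of known genes was 0.05 with all genes scaled together and 0.01 with known genes scaled alone.

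The genes described below passed in both fits unless stated otherwise: 268 known genes higher at 12 Gy (2.73% of 9809) and 152 lower (1.55%). Among these called genes the rises were larger than the falls, and they were also read less, at a median of 30.9 CPM against 92.9 CPM. The part of read level in this difference was not tested. Among genes called higher the median log2 fold change was 0.81 in size, with a range from 0.36 to 2.96, and 91 reached 2-fold. Among genes called lower it was 0.56 in size, with a range from 0.25 to 2.80, and 5 reached 2-fold. In 267 of the 268 and 151 of the 152, the 3 values of 1 dose did not overlap those of the other. The same was seen in 18.0% of all tested known genes in the upward and 12.4% in the downward direction. Most calls needed all 6 libraries. Without 12 Gy replicate 2, 38 of the 268 rises and 8 of the 152 falls passed in the fit to all genes, and without 12 Gy replicate 3, 156 and 75 did. The number that passed without any 1 of the 6 libraries was 37 rises and 6 falls, and these are called stable calls below; each of the 420 genes kept its direction in all 6 refits. The strand of counting is not given in the sources used here, so reads of a gene that overlaps exons of another cannot be assigned with certainty; among called genes named below this holds for Pdia3 (Catsper2), Dkc1 (Mpp1), Dusp1 (Ergic1), Wdr12 (Carf), Hspd1 (Hspe1), Cln3 (Apobr), Cryab (Hspb2), Rpl15 (Nkiras1) and Zfpl1 (Tmem262), for Copa, Cxcl10, Dnaja1, Jun, Junb, Map1lc3b, Plk3 and Syvn1, and for those marked where they appear. Exons of predicted loci, pseudogenes or small RNAs overlap Bnip2, Cfb, Ctsd, Dnajb9, E2f8, Ftl1, Gabarapl1, Gbp2, Gclm, Golgb1, Herc6, Hist2h2aa1, Jund, Mthfd1, Ncl, Nme1, Rpl22l1, Zfp36 and Zfp672. Among genes that were not called, Bax, Cdkn1a, Ddit3, Hmgb1, Irf7, Krt7 and Nek7 have such overlaps. A call outside the stable ones is given with the number of the 6 refits in which it passed and, for some, the highest adjusted p over the refits.

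**Figure D1:**
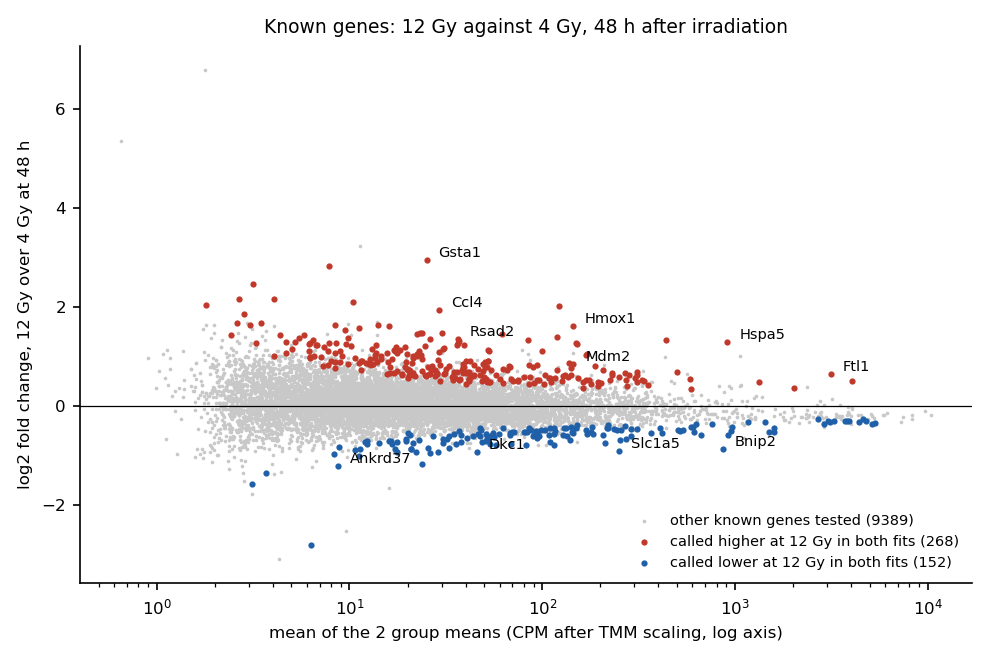
Log2 fold change between 12 Gy and 4 Gy at 48 h (vertical axis) against the mean of the 2 group means in CPM (horizontal axis, log scale) for the 9809 tested known genes; each point is 1 gene. Red points are the 268 genes called higher and blue points the 152 called lower in both fits; the rises reach a log2 fold change of 2.96 (Gsta1), and nearly all falls are smaller than 2-fold.

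Genes were grouped by function with 38 lists. A list is described by how many of its tested members were called in the fit to all genes and by its median log2 fold change. These are to be read beside 2.79% higher, 1.55% lower and a median of 0.05 over all tested known genes. In that fit 55.75% of all tested known genes had a log2 fold change above 0. Lists with many rises held targets of NRF2 (15 of 32), endoplasmic reticulum chaperones (11 of 24), immediate early genes (13 of 35), Golgi and vesicle coat genes (19 of 84), autophagy genes (10 of 44) and interferon-stimulated genes (13 of 65). Lists with many falls held ribosome biogenesis factors (24 of 117) and cytosolic ribosomal proteins (15 of 78). Falls were also many among enzymes of one-carbon, serine and nucleotide synthesis (8 of 35) and factors of mitochondrial protein import (7 of 33). Of the lists named here, those of immediate early, Golgi, autophagy, ribosome biogenesis, one-carbon and mitochondrial import genes were added with values of these data in view. Their shares are therefore no independent result.

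**Figure D2:**
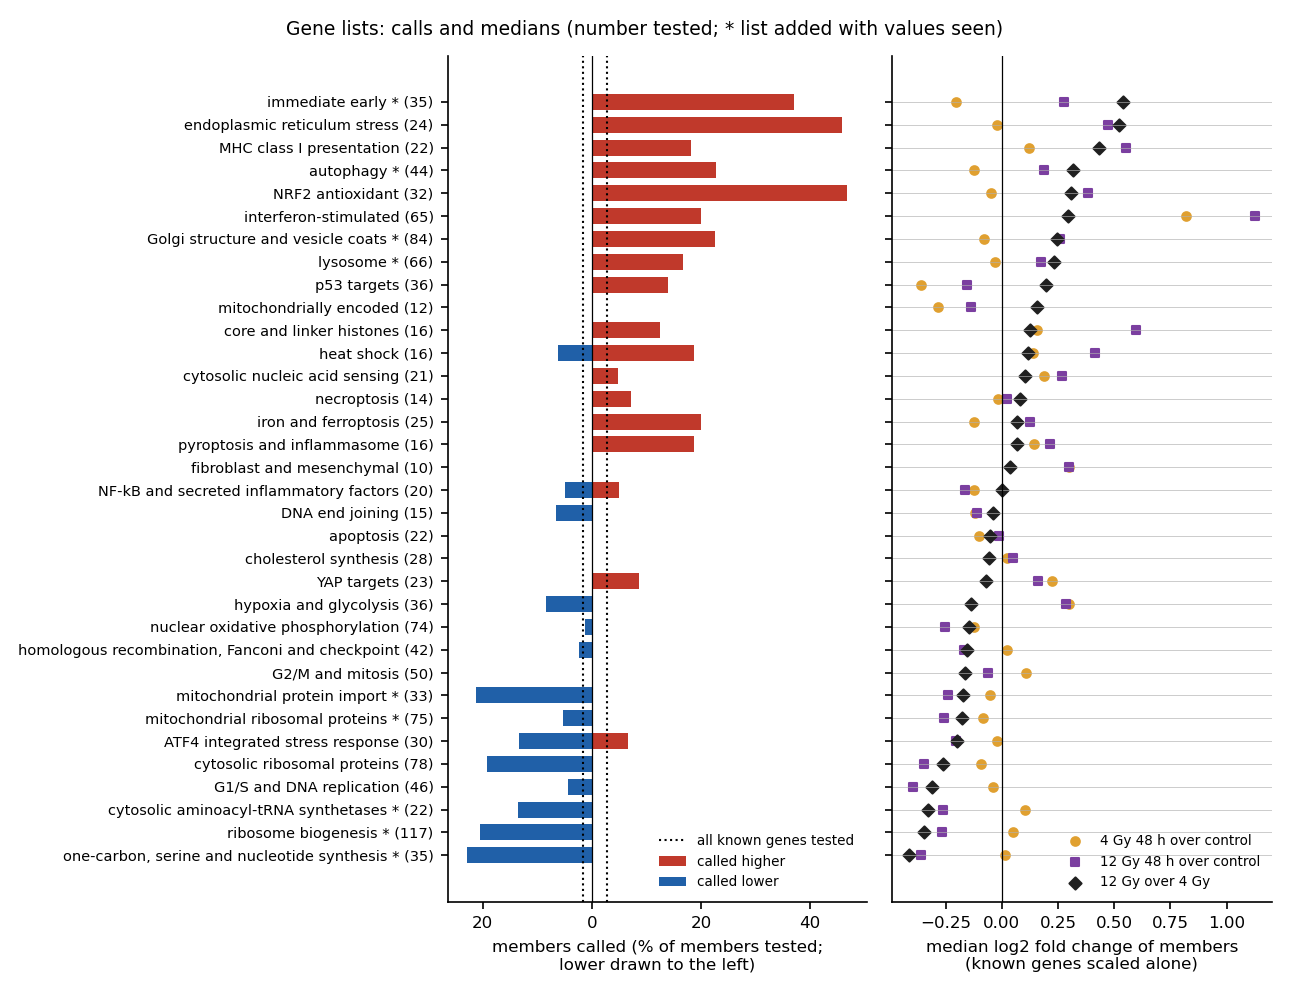
Gene lists with at least 10 tested members. Left, the percentage of tested members called higher (red, to the right) or lower (blue, to the left) at 12 Gy, with dotted lines at the shares among all tested known genes (2.79 and 1.55%). Right, the median log2 fold change of the members in 3 contrasts with known genes scaled alone; the contrasts share libraries. The antioxidant and endoplasmic reticulum lists stand to the right in calls, and the ribosome lists to the left.

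The antioxidant list held the largest rise and the highest share of rises among lists with at least 10 tested members. Of 32 tested NRF2 targets, 15 were called higher in the fit to all genes and 14 in the fit to known genes alone, none was called lower, and the median log2 fold change was 0.35. Gsta1, a glutathione transferase that conjugates reactive aldehydes and other electrophiles, was read at 7.79, 2.71 and 6.74 CPM at 4 Gy and at 49.5, 59.6 and 24.3 CPM at 12 Gy. The lowest 12 Gy value was about 3 times the highest 4 Gy value, and the control stood at 2.15, 11.5 and 4.29 CPM, a range that holds all 4 Gy values. Its log2 fold change was 2.96 ± 0.44 (edgeR adjusted p = 0.00280), the largest of the stable calls. Gsta1 lies at chromosome 9, 78230656 to 78242684, on the plus strand of GRCm38, and reads of its near copy Gm3776, also a stable call, may be shared with it. Hmox1, heme oxygenase 1, which opens the heme ring and frees its iron, stood at 85.4, 45.4 and 81.2 CPM at 4 Gy and at 209, 253 and 187 CPM at 12 Gy, with no overlap. Hmox1 rose by 1.62 ± 0.25 on the log2 scale (edgeR adjusted p = 0.00351). The 4 Gy values overlapped those of the control (45.6, 104 and 64.3 CPM).

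Gsta4, which clears the lipid peroxidation product 4-hydroxynonenal, stood at 22.6, 13.8 and 20.5 CPM at 4 Gy and at 40.8, 42.3 and 46.0 CPM at 12 Gy. Its rise of 1.18 ± 0.16 (edgeR adjusted p = 0.00225) followed a step from the 0 h control (12.03, 11.3 and 9.64 CPM) to 4 Gy. That step mixes dose with time, since the control was not kept for 48 h. Osgin1, an oxidative stress induced growth inhibitor, went from 5.45, 4.44 and 4.59 CPM at 4 Gy to 11.8, 17.1 and 13.6 CPM at 12 Gy (log2 fold change 1.55 ± 0.25, edgeR adjusted p = 0.00446). Ftl1, the light chain of ferritin, which stores iron, was among the most read genes and stood at 2660.0, 2181 and 2524 CPM at 4 Gy and at 3672, 4058 and 3810.0 CPM at 12 Gy. Its log2 fold change was 0.65 ± 0.09 (edgeR adjusted p = 0.00225), and a processed copy, Ftl1-ps1, may share its reads. Fth1, the ferritin heavy chain that oxidises iron, rose by 0.50 ± 0.11 and passed in 3 of 6 refits (highest adjusted p 0.0831 without 12 Gy replicate 2). Sat1, which acetylates spermidine and spermine and is also a p53 target, stood at 118, 81.7 and 110.3 CPM at 4 Gy and at 171, 187 and 173 CPM at 12 Gy and was a stable call (log2 fold change 0.78 ± 0.13, edgeR adjusted p = 0.00494).

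Further NRF2 targets rose with less stable calls. Nqo1, a quinone reductase, went from 16.4, 9.13 and 11.6 CPM at 4 Gy to 33.0, 46.1 and 23.8 CPM at 12 Gy, a log2 fold change of 1.47 ± 0.28 that passed in 5 of 6 refits (highest edgeR adjusted p 0.0685 without 12 Gy replicate 2). Cat, the catalase that splits hydrogen peroxide, rose by 1.20 ± 0.22 and also passed in 5 (highest 0.0580 without 12 Gy replicate 2). Slc7a11, the cystine importer, rose by 1.09 ± 0.29, Srxn1, which repairs peroxiredoxins, by 0.76 ± 0.16, and Pgd, a producer of NADPH, by 0.62 ± 0.13, passing in 2, 3 and 4 refits. Gclc, the catalytic subunit of glutathione synthesis, was not called (0.26 ± 0.19, edgeR adjusted p = 0.464), while Gclm, its regulatory subunit, was (0.62 ± 0.16, adjusted p = 0.0340, 2 of 6 refits). Of the 14 list members called in both fits, 9 had their 4 Gy mean between control and 12 Gy, and 5 had the control mean between the doses; with known genes scaled alone these were 6 and 8. The antioxidant element (TGAC, any 3 bases and GC, on either strand) was found in 4 of 17 RefSeq promoter windows of these genes (23.5%), in 28.1% of the windows of all tested list members and in 14.5% of those of all tested known genes. A window held 250 bases before and 50 after the start site.

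**Figure D3:**
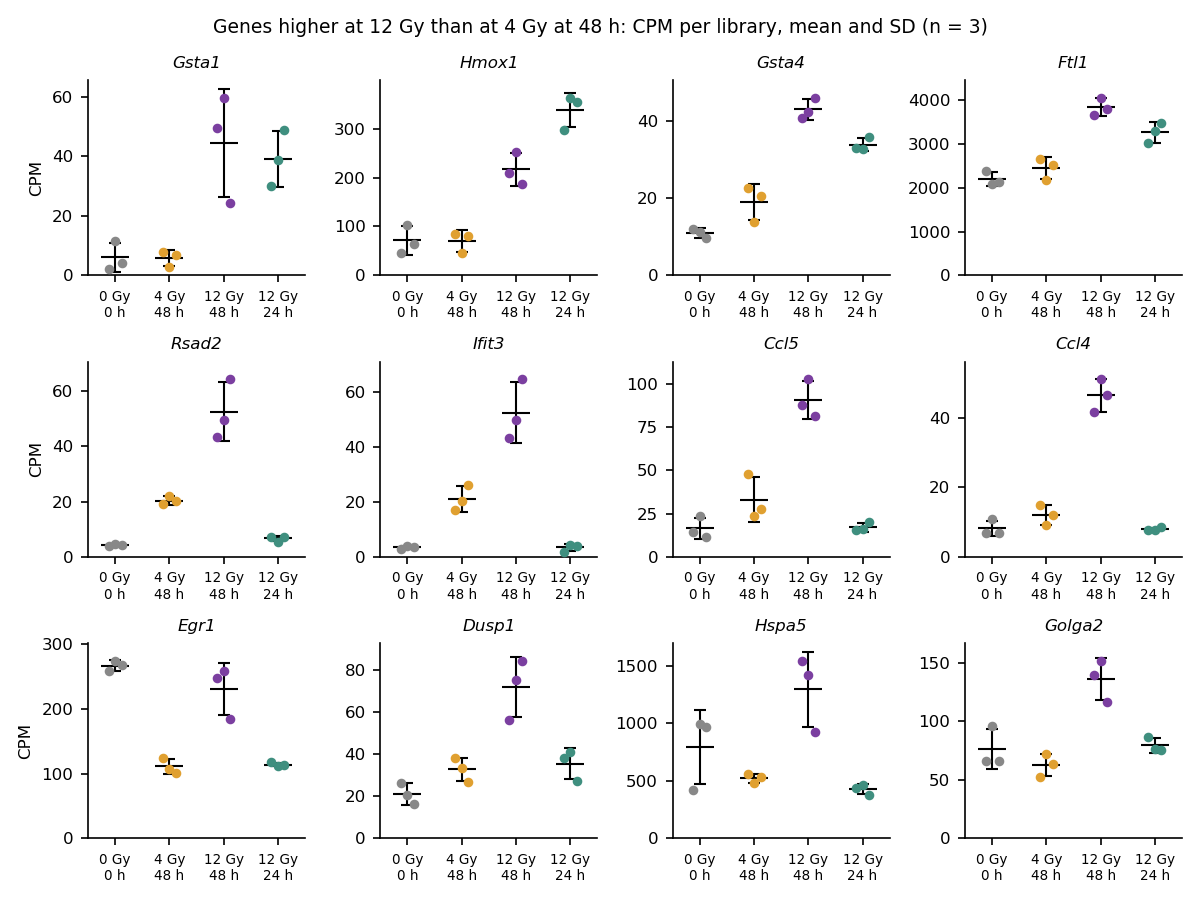
CPM per library for 12 genes called higher at 12 Gy than at 4 Gy at 48 h; points are libraries, the bar is the mean and the whiskers its SD (n = 3), and the groups are, from the left, the 0 h control, 4 Gy (48 h), 12 Gy (48 h) and 12 Gy (24 h). In all 12 genes the points at 12 Gy, 48 h lie above those at 4 Gy, 48 h; Rsad2 and Ifit3 step up from control to 4 Gy to 12 Gy, while Egr1 is lower at 4 Gy than in the control.

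Interferon-stimulated genes included some of the most stable rises. Of 65 tested members 13 were called higher and none lower in each of the 2 fits, and the median log2 fold change was 0.33. Of all 65, 58 had a log2 fold change above 0, against 55.75% of all tested known genes. Rsad2 encodes viperin, an antiviral enzyme of the interferon response. It was read at 18.9, 21.96 and 20.2 CPM at 4 Gy and at 43.4, 49.7 and 64.3 CPM at 12 Gy, against 4.08, 4.61 and 4.29 CPM in the 0 h control. The 3 groups did not overlap, and Rsad2 rose from control to 4 Gy to 12 Gy, an order that mixes dose with time. Its log2 fold change was 1.36 ± 0.16 (edgeR adjusted p = 0.000815). Ifit3, an interferon-induced protein that binds other IFIT proteins, stood at 16.9, 20.2 and 26.2 CPM at 4 Gy and at 43.2, 49.7 and 64.5 CPM at 12 Gy and rose by 1.31 ± 0.20 (edgeR adjusted p = 0.00345); the near copy Ifit3b may share reads and rose by 1.23 ± 0.29, passing in 1 of 6 refits (highest adjusted p 0.0888 without 12 Gy replicate 3). Gbp2, an interferon-induced GTPase that coats vacuoles of pathogens, stood at 17.6, 13.6 and 13.5 CPM at 4 Gy and at 27.7, 34.1 and 41.5 CPM at 12 Gy (log2 fold change 1.21 ± 0.22, edgeR adjusted p = 0.00772). Within the 12 Gy group, replicate 3 was the highest for Rsad2, Ifit3 and Gbp2.

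The regions upstream of these 3 genes are shown because they carry the letters of the interferon-stimulated response element. The sequences are the 250 bases before the RefSeq start site (GRCm38.p6), 5′ to 3′ on the strand of the gene, with matches in capitals; a match is GAAA, any 2 bases and GAAA again, on either strand. Rsad2 covers chr12:26456453-26456702 on the minus strand, Ifit3 chr19:34583279-34583528 and Gbp2 chr3:142620413-142620662, both on the plus strand.
Rsad2: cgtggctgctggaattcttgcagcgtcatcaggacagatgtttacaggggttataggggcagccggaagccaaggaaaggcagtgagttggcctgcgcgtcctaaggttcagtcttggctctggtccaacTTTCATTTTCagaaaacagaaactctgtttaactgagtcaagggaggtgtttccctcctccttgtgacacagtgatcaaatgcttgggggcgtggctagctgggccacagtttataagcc
Ifit3: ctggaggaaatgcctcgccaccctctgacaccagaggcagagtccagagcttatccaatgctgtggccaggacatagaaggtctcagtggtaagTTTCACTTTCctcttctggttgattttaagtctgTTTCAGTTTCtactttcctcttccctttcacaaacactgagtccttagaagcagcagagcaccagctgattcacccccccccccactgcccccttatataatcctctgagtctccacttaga
Gbp2: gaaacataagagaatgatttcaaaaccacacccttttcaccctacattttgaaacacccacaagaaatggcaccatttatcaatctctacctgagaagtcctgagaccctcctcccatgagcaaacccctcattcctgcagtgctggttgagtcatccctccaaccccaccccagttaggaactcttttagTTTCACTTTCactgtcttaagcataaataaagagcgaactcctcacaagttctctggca
Rsad2 and Gbp2 hold 1 match each and Ifit3 holds 2; all of these read TTTC, 2 bases and TTTC, the reverse complement. The first match starts 120 bases before the start site in Rsad2, 156 in Ifit3 and 59 in Gbp2. Promoter windows were matched for 9 of the 13 called members, and 7 of these 9 (77.8%) held a match, against 40.6% of the windows of all tested list members, 3.10% of those of tested known genes and 3.44% of all 32851 windows. Among genes called higher in both fits 5.15% of windows held it, and among those called lower 1.32%. The windows of Oasl1 and Herc6 held no match, and both genes were called, Herc6 in 0 of 6 refits.

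Oasl1, a 2′-5′-oligoadenylate synthetase-like protein, stood at 148, 119 and 142 CPM at 4 Gy and at 224, 235 and 255 CPM at 12 Gy and was a stable call (log2 fold change 0.81 ± 0.14, edgeR adjusted p = 0.00628); it overlaps exons of Gm13822, and the strand of counting is not given. The chemokine Ccl5, which attracts T cells and monocytes, was read at 47.8, 23.4 and 27.5 CPM at 4 Gy and at 87.7, 103 and 81.3 CPM at 12 Gy and rose by 1.46 ± 0.24 (edgeR adjusted p = 0.00446). Ccl4, another chemokine for monocytes and T cells that is in none of the lists, had the smallest adjusted p of the named rises: it stood at 14.8, 9.13 and 12.1 CPM at 4 Gy and at 41.9, 51.2 and 46.5 CPM at 12 Gy, and its log2 fold change was 1.95 ± 0.19 (edgeR adjusted p = 0.000163). The control had 6.88, 10.8 and 6.97 CPM of Ccl4, so the step from control to 4 Gy was small beside that from 4 to 12 Gy. Cxcl10, a chemokine induced by interferons, rose by 1.36 ± 0.29 and passed in 3 of 6 refits (highest adjusted p 0.0742 without 12 Gy replicate 2). Stat2, a subunit of the factor that carries type I interferon signals, rose by 0.69 ± 0.17 but passed in no refit with a library left out (highest 0.129 without 12 Gy replicate 2).

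Other members, high at both doses, were not called between them. Irf7, the factor that amplifies interferon, stood at 257, 149 and 219.9 CPM at 4 Gy and 249, 256 and 306 CPM at 12 Gy, against 79.7, 90.7 and 56.8 CPM in the control (12 against 4 Gy: 0.37 ± 0.19, edgeR adjusted p = 0.275). Ifi44 gave -0.09 ± 0.17, Isg15, a ubiquitin-like modifier, 0.42 ± 0.18 and Ifit1, which binds foreign RNA caps, 0.34 ± 0.20, none of them called. For each of the 13 called members the 4 Gy mean lay between those of the control and of 12 Gy. Over the whole list the median log2 fold change against control was 1.31 at 12 Gy and 0.97 at 4 Gy, and these contrasts share the control and the irradiated libraries with the comparison of doses.

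Of 16 tested genes of pyroptosis, the subject named in the title, 3 were called higher, against 2.79% of all tested known genes. None was called lower in the fit to all genes, and the median log2 fold change was 0.11. Casp1, the inflammatory caspase that cuts gasdermin D and pro-interleukin 1 beta, was read at 13.5, 16.5 and 14.3 CPM at 4 Gy and at 29.8, 25.2 and 26.7 CPM at 12 Gy, and the control at 12.7, 17.9 and 14.2 CPM. The 4 Gy libraries thus lay within the control range, and all 12 Gy libraries lay above it. Casp1 rose by 0.88 ± 0.16 (edgeR adjusted p = 0.00949), a stable call. Zbp1, a sensor of Z-form nucleic acids that can start necroptosis and pyroptosis and is itself induced by interferon, stood at 44.4, 25.2 and 38.6 CPM at 4 Gy and at 59.4, 65.5 and 78.9 CPM at 12 Gy against 9.46, 9.22 and 6.43 CPM in the control. Its log2 fold change between doses was 0.92 ± 0.19 (edgeR adjusted p = 0.0155), with passes in 4 of 6 refits; it missed without 12 Gy replicate 2 (0.0657) and without 12 Gy replicate 3 (0.0569). Txnip, which binds thioredoxin and can engage the NLRP3 inflammasome, stood at 87.8, 53.8 and 120.0 CPM at 4 Gy and at 224, 243 and 168 CPM at 12 Gy. It differed by 1.28 ± 0.29 between doses (edgeR adjusted p = 0.0220; 2 of 6 refits, highest 0.103 without 12 Gy replicate 2), against 119, 218 and 321 CPM in the control, and it overlaps exons of Gm15441.

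The pore-forming gasdermins were not among the calls. Gsdmd was read at 4.67, 4.20 and 3.24 CPM at 4 Gy and at 1.83, 5.35 and 3.40 CPM at 12 Gy, where 1 CPM is about 4 reads, and gave -0.19 ± 0.41 (edgeR adjusted p = 0.832); without 12 Gy replicate 1 the sign turned (0.12, adjusted p = 0.919). Gsdme, another pore-forming gasdermin, stood at 13.8, 18.3 and 13.2 CPM at 4 Gy and at 8.63, 11.7 and 17.8 CPM at 12 Gy, with overlapping groups (-0.25 ± 0.26, edgeR adjusted p = 0.628). Casp4, the mouse caspase 11 that senses lipopolysaccharide, varied widely within groups and was not called: 16.6, 7.16 and 10.8 CPM at 4 Gy and at 20.4, 24.2 and 13.1 CPM at 12 Gy (0.74 ± 0.44, adjusted p = 0.353). Casp8, Aim2, Naip2, Naip5, Ninj1 and Nek7 were not called, with log2 fold changes from -0.33 (Nek7) to 0.47 (Naip5). Hmgb1, a nuclear protein released by dying cells, was called lower only with known genes scaled alone (-0.45 ± 0.13 in the fit to all genes, adjusted p = 0.0580, and 0.0327 with known genes alone). Nlrp3, Il1b and Il18 were among the 20 list members that did not pass the filter on low counts. Of 22 tested apoptosis genes none was called, with a median of -0.01. Of 14 necroptosis genes Zbp1 was the one called; Mlkl, the necroptosis pore, gave 0.31 ± 0.19 (edgeR adjusted p = 0.363).

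**Figure D4:**
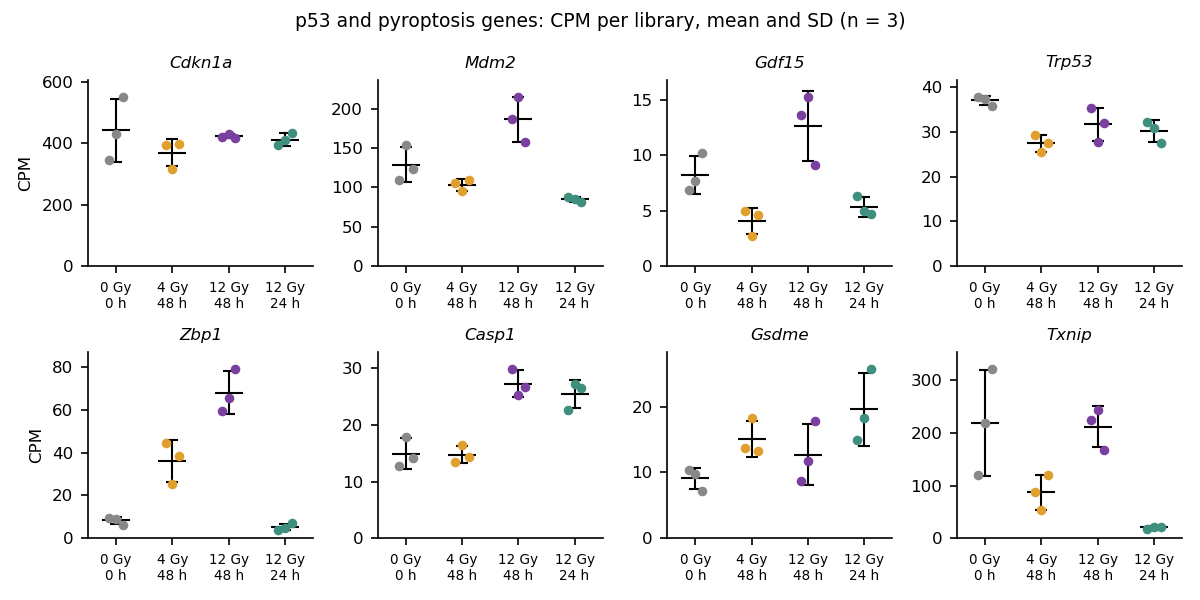
CPM per library for 4 p53-related genes (Cdkn1a, Mdm2, Gdf15, Trp53) and 4 genes linked to pyroptosis (Zbp1, Casp1, Gsdme, Txnip); points are libraries, the bar is the mean and the whiskers its SD (n = 3). Mdm2, Gdf15, Casp1, Zbp1 and Txnip do not overlap between 4 Gy and 12 Gy at 48 h, whereas Gsdme and Trp53 do.

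Of 36 tested p53 targets, 5 were called higher and none lower in each fit, and the median was 0.24. Over all tested known genes 2.79% were called higher in the fit to all genes and 2.91% with known genes alone. Mdm2 stood at 105, 95 and 109.5 CPM at 4 Gy and at 187, 215 and 158 CPM at 12 Gy, against 109.6, 154 and 124 CPM in the control. Its log2 fold change was 0.86 ± 0.14 (edgeR adjusted p = 0.00446), a stable call. Gdf15, a secreted stress cytokine, was read at 4.93, 2.71 and 4.59 CPM at 4 Gy and at 13.6, 15.3 and 9.15 CPM at 12 Gy and in the control at 6.88, 7.68 and 10.2 CPM, so its 4 Gy values were the lowest of the 3 groups (log2 fold change 1.64 ± 0.28, edgeR adjusted p = 0.00533). Phlda3, an inhibitor of AKT, and the polo-like kinases Plk2 and Plk3 rose by 0.57 ± 0.15, 0.74 ± 0.19 and 0.56 ± 0.15, passing in 1, 2 and 2 of 6 refits. For all 5 called targets the control mean lay between the 2 doses. Cdkn1a was not called: it stood at 393, 317 and 397 CPM at 4 Gy and at 421, 430.2 and 416 CPM at 12 Gy and at 346, 430.5 and 550.0 CPM in the control (0.19 ± 0.14, edgeR adjusted p = 0.440). Bax, which permeabilises mitochondria, gave -0.01 ± 0.11, Bbc3, its BH3-only activator, 0.76 ± 0.24 (adjusted p = 0.0759) and Trp53 itself 0.21 ± 0.14 (adjusted p = 0.400). Over the 36 targets the median log2 fold change against the 0 h control was 0.03 at 12 Gy and -0.21 at 4 Gy.

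Chaperones and quality control factors of the endoplasmic reticulum followed the antioxidant list in their share of rises, with 11 of 24 members called higher (9 with known genes alone), none lower, and a median log2 fold change of 0.56. Hspa5, the BiP chaperone that holds unfolded proteins and keeps stress sensors inactive, was read at 561, 483 and 529.8 CPM at 4 Gy and at 1546, 1421 and 927 CPM at 12 Gy. The control libraries themselves ran from 419 to 998.7 CPM, so all 4 Gy values lay inside the control range, and 2 of the 3 libraries at 12 Gy lay above it. Hspa5 rose by 1.31 ± 0.24 (edgeR adjusted p = 0.00894; 5 of 6 refits, 0.0577 without 12 Gy replicate 2). Pdia3, a disulfide isomerase that also serves MHC class I loading, stood at 231, 207 and 220.1 CPM at 4 Gy and at 318, 338 and 365 CPM at 12 Gy and was a stable call (0.63 ± 0.10, edgeR adjusted p = 0.00431). Calr, the lectin chaperone calreticulin, rose by 0.69 ± 0.12 (5 of 6 refits, highest adjusted p 0.0525 without 12 Gy replicate 2). Creld2, Sdf2l1, Dnajb9 and Syvn1, a cofactor, 2 chaperone partners and a ubiquitin ligase of protein quality control, rose by 0.80, 0.81, 1.02 and 1.11, passing in 5, 5, 3 and 4 of 6 refits. Ddit3, the CHOP factor of prolonged stress, was not called (0.84 ± 0.26, edgeR adjusted p = 0.0717), nor was Xbp1, the factor spliced by IRE1 (0.61 ± 0.20, adjusted p = 0.0901).

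Targets of ATF4, the other arm of the stress response, gave calls in both directions: 2 of 30 were called higher and 4 lower (7 lower with known genes alone), with a median of -0.16. The falls were Asns, asparagine synthetase (-0.39 ± 0.10; 1 of 6 refits), Phgdh, the first enzyme of serine synthesis (-0.36 ± 0.09; 0 of 6 refits), Aldh18a1, which makes the precursor of proline (-0.56 ± 0.14; 0 of 6 refits), and Mthfd2, a mitochondrial folate enzyme (-0.68 ± 0.14, edgeR adjusted p = 0.0155; 4 of 6 refits). The rises were Slc7a11, also counted with the NRF2 targets, and Fgf21, a secreted metabolic hormone, which stood at 9.09, 2.22 and 9.44 CPM at 4 Gy and at 28.5, 26.5 and 8.89 CPM at 12 Gy with groups that overlap (1.63 ± 0.43, edgeR adjusted p = 0.0387; 1 of 6 refits, 0.170 without 12 Gy replicate 2). Atf4 itself stood at 386, 397 and 434 CPM at 4 Gy and 414, 442 and 379 CPM at 12 Gy (0.02 ± 0.10, edgeR adjusted p = 0.925).

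Presentation of antigen on MHC class I had the median 0.47 over 22 tested genes, with 4 called higher and none lower, among them Pdia3 and Calr. H2-D1, a class I heavy chain, was read at 1280.0, 858 and 1195 CPM at 4 Gy and at 1471, 1657 and 1535 CPM at 12 Gy and rose by 0.48 ± 0.12 (edgeR adjusted p = 0.0327), and Tap2, a subunit of the peptide transporter, rose by 0.49 ± 0.14 (adjusted p = 0.0491). These 2 calls passed in 1 and 0 of 6 refits (highest 0.137 without 12 Gy replicate 2 and 0.183 without 12 Gy replicate 2), H2 genes are near copies of each other, and Tap2 overlaps exons of Gm15821. B2m, the light chain of class I, was not called (0.39 ± 0.13, edgeR adjusted p = 0.107).

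Immediate early genes code for short-lived transcription factors and feedback regulators. Of 35 tested members 13 were called higher and none lower in each fit, with a median of 0.58. Egr1, a zinc finger factor downstream of MAP kinases, was read at 125, 108 and 101 CPM at 4 Gy and at 249, 259 and 185 CPM at 12 Gy, against 259, 275 and 269 CPM in the control. All 4 Gy values lay below every control and every 12 Gy value, and 2 of the 3 libraries at 12 Gy lay below the control range. The log2 fold change of Egr1 between doses was 1.05 ± 0.13 (edgeR adjusted p = 0.000815), and between 4 Gy and control it was -1.26. Dusp1, a phosphatase that switches off MAP kinases, instead rose in steps: 26.2, 20.7 and 16.1 CPM in the 0 h control, 37.9, 33.3 and 26.7 CPM at 4 Gy and 56.3, 74.9 and 84.2 CPM at 12 Gy (12 against 4 Gy: 1.14 ± 0.20, edgeR adjusted p = 0.00613). Zfp36, which destabilises mRNAs with AU-rich elements, stood at 25.4, 15.6 and 15.9 CPM at 4 Gy and at 40.03, 39.7 and 47.3 CPM at 12 Gy (1.16 ± 0.19, adjusted p = 0.00446). Jund, an AP-1 subunit, rose by 0.90 ± 0.15 (adjusted p = 0.00505). These 4 were stable calls.

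The AP-1 subunits Fos, Fosb, Jun and Junb rose by 1.24 ± 0.33, 1.34 ± 0.27, 1.03 ± 0.20 and 0.80 ± 0.17, and the zinc finger factors Klf4 and Klf6 by 0.73 ± 0.14 and 1.33 ± 0.28. They passed in 1 (Fos), 4 (Fosb), 5 (Jun), 3 (Junb), 4 (Klf4) and 2 (Klf6) of 6 refits. For Fos, 4 Gy replicate 1 (38.9 CPM) lay well above the other 4 Gy libraries (15.3 and 15.9 CPM), and the 1 refit that called Fos was the one without that library, with an adjusted p of 0.00870. Of the 13 called members, 7 had the 4 Gy mean between control and 12 Gy, 5 had the control mean between the doses, and 1 had the 12 Gy mean between the others; with known genes scaled alone these were 4, 8 and 1. The list was added with values of these data in view.

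Lists of the secretory and degradative compartments gave calls in the upward direction. Of 84 tested Golgi and vesicle coat genes 19 were called higher and none lower in each fit, with a median of 0.29. A log2 fold change above 0 was found in 76 of the 84, against 55.75% of all tested known genes. Golga2, the GM130 tether of the cis-Golgi, was read at 52.4, 71.6 and 63.4 CPM at 4 Gy and at 139, 152 and 117 CPM at 12 Gy and was a stable call (1.12 ± 0.16, edgeR adjusted p = 0.00280); it overlaps exons of Swi5. Zfpl1, a Golgi membrane protein that binds GM130, stood at 31.4, 24.7 and 26.4 CPM at 4 Gy and at 53.4, 54.2 and 41.8 CPM at 12 Gy (0.86 ± 0.15, adjusted p = 0.00580), also stable. Sec31a, a subunit of the COPII coat that carries cargo out of the endoplasmic reticulum, rose by 0.78 ± 0.14 (5 of 6 refits, 0.0517 without 12 Gy replicate 2). The golgins Golga3, Golga4 and Golgb1 rose by 0.68, 0.96 and 0.76, passing in 3, 0 and 1 of 6 refits, and Copa and Cope, subunits of the COPI coat, by 0.60 and 0.48, passing in 1 and 2.

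Among 66 lysosomal genes 11 were called higher (10 with known genes alone) and none lower, with a median of 0.27. Cd68, a glycoprotein of lysosomal membranes often used to mark macrophages, was read at 14.8, 10.1 and 12.7 CPM at 4 Gy and at 34.0, 37.4 and 33.5 CPM at 12 Gy and at 15.7, 19.5 and 19.6 CPM in the control (1.48 ± 0.21, edgeR adjusted p = 0.00280, stable). Of 20 immune markers 5 had reads in all 6 libraries. Beside Cd68 these were Cd14 (214 reads at 4 Gy, 255 at 12 Gy), Lyz2 (73 and 80), Csf1r (19 and 36) and Cd79a (18 and 15). Of the 20, 4 were tested and Cd68 was the one called. Ptprc, Cd3e and Adgre1 had no read in the 12 libraries. Ctsd, the aspartic protease cathepsin D, stood at 268, 215 and 243 CPM at 4 Gy and at 356, 400.4 and 371 CPM at 12 Gy (0.64 ± 0.10, edgeR adjusted p = 0.00467, stable). Cln3, a lysosomal membrane protein, Smpd1, acid sphingomyelinase, and Atp6v0d1, a subunit of the proton pump, rose by 0.76, 0.63 and 0.59, passing in 4, 1 and 2 of 6 refits. Of 44 autophagy genes 10 were called higher (9 with known genes alone) and none lower, with a median of 0.36. They included Atg2a, a lipid transfer protein (1.08 ± 0.21; 5 of 6 refits), Atg13, a subunit of the initiating kinase complex (0.90 ± 0.20; 3 of 6 refits), and the membrane-anchored Gabarapl1 (0.62 ± 0.14; 3 of 6 refits) and Map1lc3b (0.45 ± 0.12; 1 of 6 refits). No autophagy call passed in all 6 refits. Atg9b (1.62 ± 0.30; 5 of 6 refits) overlaps exons of Nos3, so its reads cannot be assigned with certainty. These 3 lists were added with values of these data in view.

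Factors that make ribosomes, the longest list, gave the largest number of falls. In the fit to all genes the share called lower was larger for one-carbon enzymes (8 of 35) and mitochondrial import factors (7 of 33). Of 117 tested ribosome biogenesis factors 24 were called lower in the fit to all genes and 40 with known genes alone, none was called higher, and the median log2 fold change was -0.31. Dkc1, the pseudouridine synthase of H/ACA particles that also binds telomerase RNA, was read at 59.7, 64.4 and 56.4 CPM at 4 Gy and at 30.6, 26.2 and 38.2 CPM at 12 Gy, against 50.3, 41.0 and 41.5 CPM in the control. All 4 Gy values lay above the control range and all 12 Gy values below it. Dkc1 fell by 0.93 ± 0.15 on the log2 scale (edgeR adjusted p = 0.00446), the 1 stable call of the list. Nop56, a core protein of C/D box particles that guide methylation of ribosomal RNA, stood at 300.1, 332 and 299 CPM at 4 Gy and at 186, 166 and 229 CPM at 12 Gy (-0.68 ± 0.13, edgeR adjusted p = 0.00894; 5 of 6 refits, 0.0648 without 12 Gy replicate 2) and overlaps Idh3b and small nucleolar RNA genes. Npm1, nucleophosmin, was read at 1686, 1805 and 1971 CPM at 4 Gy and at 1393, 1273 and 1361 CPM at 12 Gy (-0.44 ± 0.08, adjusted p = 0.00977, 4 of 6 refits, 0.0718 without 12 Gy replicate 2). Nat10, which acetylates ribosomal RNA (-0.92 ± 0.18), Wdr12 of the PeBoW complex (-0.77 ± 0.13), Tcof1, treacle (-0.62 ± 0.13), Ncl, nucleolin (-0.41 ± 0.10), and Fbl, the methyltransferase fibrillarin (-0.50 ± 0.11), fell too and passed in 5, 5, 4, 1 and 2 of 6 refits. For 19 of the 24 called genes the control mean lay between the doses, with 4 Gy the highest group. Against the control the median of the list was -0.08 at 12 Gy and 0.20 at 4 Gy with all genes scaled together, and -0.27 and 0.05 with known genes scaled alone. The list was added with values of these data in view.

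**Figure D5:**
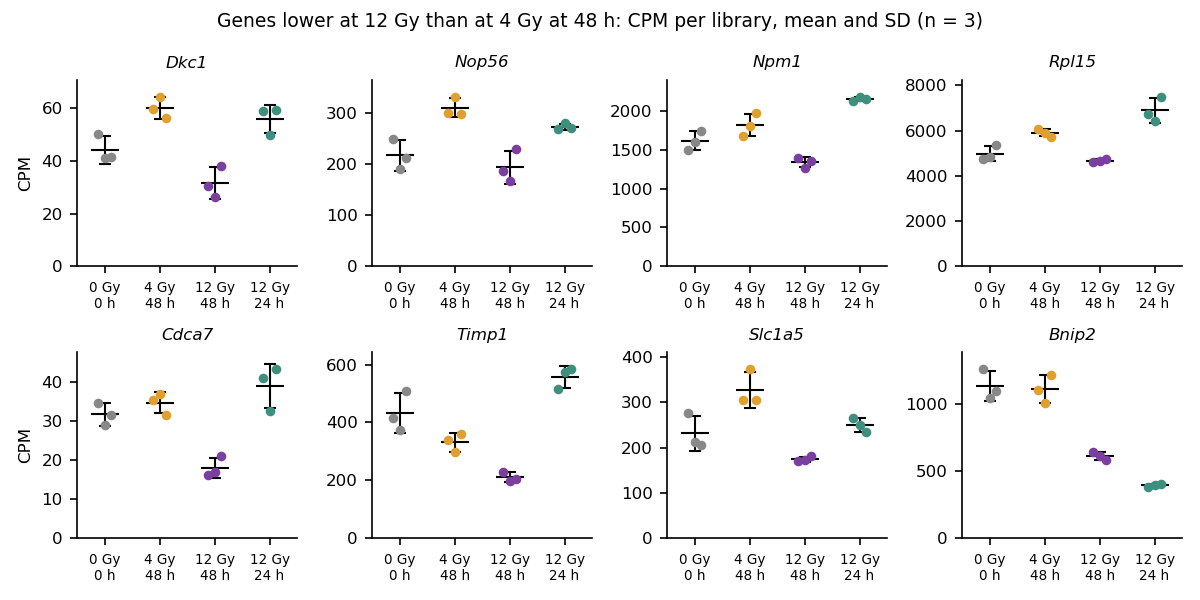
CPM per library for 8 genes called lower at 12 Gy than at 4 Gy at 48 h; points are libraries, the bar is the mean and the whiskers its SD (n = 3). In all 8 genes the points at 12 Gy, 48 h lie below those at 4 Gy, 48 h; for Dkc1, Nop56, Npm1 and Slc1a5 the control lies between or near both, for Bnip2 it lies near 4 Gy, and for Timp1 it lies above both.

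Cytosolic ribosomal proteins gave falls of small size: of 78 tested, 15 were called lower in the fit to all genes and 32 with known genes alone, none was called higher, and the median log2 fold change was -0.22. In 61 of the 78, all 12 Gy values lay below all 4 Gy values, against 12.4% of all tested known genes. Rpl15, of the large subunit, was read at 6051, 5901 and 5735 CPM at 4 Gy and at 4598, 4647 and 4745 CPM at 12 Gy (-0.34 ± 0.07, edgeR adjusted p = 0.0163; 3 of 6 refits, 0.0893 without 12 Gy replicate 2). Rpl22l1, a paralog of the large subunit protein L22 and no member of the list, was a stable call at 1713, 1663 and 1901 CPM at 4 Gy and at 1308, 1245 and 1132 CPM at 12 Gy (-0.52 ± 0.08, edgeR adjusted p = 0.00446). Ribosomal protein genes are short, and libraries differed in the length of the genes they read. The read-weighted length of the longest annotated transcript was 2263.8, 2307.7 and 2266.1 nt in the 4 Gy libraries and 2349.8, 2349.1 and 2346.3 nt in the 12 Gy libraries, which do not overlap. The median log2 fold change ran from -0.02 in the shortest to 0.09 in the longest of 4 equal length classes of known genes. The part of transcript length in the falls of ribosomal proteins was not tested.

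Other lists of growth metabolism gave falls, to be read beside 1.55% lower over all tested known genes, or 3.22% with known genes scaled alone. The one-carbon, aminoacyl-tRNA synthetase, mitochondrial import and mitochondrial ribosomal protein lists were added with values of these data in view. Of 35 enzymes of one-carbon, serine and nucleotide synthesis 8 were called lower (13 with known genes alone) and none higher, with a median of -0.37. Mthfd1, the cytosolic folate enzyme with 3 activities, stood at 37.9, 50.8 and 46.4 CPM at 4 Gy and at 28.8, 23.2 and 27.7 CPM at 12 Gy (-0.76 ± 0.15, edgeR adjusted p = 0.0103; 5 of 6 refits, 0.0732 without 12 Gy replicate 2). Nme1, a nucleoside diphosphate kinase, fell by 0.49 ± 0.10 (4 of 6 refits). Slc1a5, which imports glutamine, is in none of the added metabolic lists and gave a stable fall, from 306, 373 and 304 CPM at 4 Gy to 169.8, 173 and 181 CPM at 12 Gy (-0.91 ± 0.12, edgeR adjusted p = 0.00225). Its control stood at 276, 212 and 205 CPM, between the doses.

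Of 22 cytosolic aminoacyl-tRNA synthetases, which load amino acids on tRNA, 3 were called lower (5 with known genes alone) and none higher: Lars (-0.55 ± 0.10), Rars (-0.47 ± 0.10) and Tars (-0.41 ± 0.10), which passed in 5, 4 and 0 of 6 refits. Rars showed little spread, at 290.3, 288 and 276 CPM at 4 Gy and at 207, 205 and 204 CPM at 12 Gy. Of 33 factors that import proteins into mitochondria 7 were called lower (8 with known genes alone) and none higher, among them the small chaperones Timm10 (-0.59 ± 0.11; 5 of 6 refits) and Timm8a1 (-0.60 ± 0.12; 4 of 6 refits) and Hspd1, the folding chaperone of the matrix (-0.58 ± 0.10, edgeR adjusted p = 0.00489; 5 of 6 refits, 0.0508 without 12 Gy replicate 2). Of 75 mitochondrial ribosomal proteins 4 were called lower, with a median of -0.14. Of 74 nuclear subunits of oxidative phosphorylation 1 was, no more than the 1.55% of all tested known genes, with a median of -0.11. With known genes alone 7 of the 74 were, against 3.22%. None of 12 tested mitochondrially encoded genes was called. In hypoxia and glycolysis 3 of 36 genes were called lower (6 with known genes alone): Ankrd37, a HIF target, Eno1, enolase, and Ldha, lactate dehydrogenase (0 of 6 refits). Eno1 was read at 1877, 1996 and 1750.0 CPM at 4 Gy and at 1263, 1256 and 1401 CPM at 12 Gy (-0.52 ± 0.11, edgeR adjusted p = 0.0137; 4 of 6 refits). Ankrd37 went from 15.3, 7.40 and 14.03 CPM at 4 Gy to 5.76, 6.37 and 3.66 CPM at 12 Gy (-1.21 ± 0.29; 1 of 6 refits), above the control (1.504, 1.54 and 1.07 CPM) at both doses, and it overlaps exons of Ufsp2 and Lrp2bp.

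Calls among cell cycle genes were in the downward direction only. They are to be read beside 1.55% lower over all tested known genes, or 3.22% with known genes scaled alone. Of 46 G1/S and replication genes 43 had a log2 fold change below 0, with a median of -0.27. In 13 of the 46, all 12 Gy values lay below all 4 Gy values, against 12.4% of all tested known genes. In the fit to all genes 2 were called lower and with known genes alone 4, and none was called higher. They included E2f8, an atypical E2F repressor, which went from 9.87, 11.6 and 11.3 CPM to 4.97, 4.58 and 7.32 CPM (-0.96 ± 0.25, edgeR adjusted p = 0.0401; 1 of 6 refits, 0.177 without 12 Gy replicate 2). Mcm2 of the replicative helicase gave -0.24 ± 0.17 (edgeR adjusted p = 0.433) and Pcna, the sliding clamp, -0.37 ± 0.15 (adjusted p = 0.160). Cdca7, a MYC and E2F target that recruits the HELLS remodeller and that is not on the list, gave a stable fall at 35.3, 36.8 and 31.6 CPM at 4 Gy and at 16.2, 16.8 and 20.9 CPM at 12 Gy (-0.94 ± 0.16, edgeR adjusted p = 0.00489). None of 50 G2/M genes was called in the fit to all genes, with a median of -0.12, and Mki67, a proliferation marker, gave -0.12 ± 0.15 (edgeR adjusted p = 0.689). In DNA repair 1 of 42 genes of homologous recombination, the Fanconi pathway and checkpoints was called (Rad51c, -0.82 ± 0.22, 0 of 6 refits) and 1 of 15 end joining genes, Xrcc6, the Ku70 subunit (-0.56 ± 0.14, 1 of 6 refits), which overlaps exons of Desi1; both were lower at 12 Gy. Of 16 tested histone genes 2 polyadenylated ones were called higher, Hist1h2bc (0.92 ± 0.25) and Hist2h2aa1 (0.72 ± 0.18), each in 1 of 6 refits, and histone genes share reads with near copies.

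Among the largest changes outside these groups, Cfb, complement factor B, was read at 1.30, 1.48 and 1.62 CPM at 4 Gy and at 4.45, 7.39 and 8.10 CPM at 12 Gy. Its log2 fold change was 2.16 ± 0.40 (edgeR adjusted p = 0.00949), with passes in 5 of 6 refits (0.0609 without 12 Gy replicate 2). The 0 h control stood lower, at 0.430, 0.768 and 0.268 CPM. Rsrp1, a nuclear protein rich in arginine and serine, stood at 38.4, 70.1 and 35.6 CPM at 4 Gy and at 180.3, 169.6 and 240.4 CPM at 12 Gy (2.03 ± 0.45; 2 of 6 refits), above the wide control range (108, 161 and 56.3 CPM) in every library at 12 Gy. Rnasek, Hmcn2 and Rnf183 were also among the 10 largest rises (2.11, 2.46 and 1.69), each at under 20 CPM, passing in 5, 2 and 2 of 6 refits. Rnasek shares exons with Gm21988, and no call among these 5 was stable. Among the falls, Bnip2, a BCL2-interacting protein that acts on small GTPases, had the smallest adjusted p: it was read at 1106, 1009 and 1219 CPM at 4 Gy and at 640.5, 615 and 587 CPM at 12 Gy, while the control stood at 1262, 1050.0 and 1099 CPM (-0.86 ± 0.09, edgeR adjusted p = 0.000633, stable). The values of Bnip2 thus overlapped those of the control at 4 Gy and lay below all of them at 12 Gy. Bzw2, a regulator of translation start, fell by 0.73 ± 0.12 (edgeR adjusted p = 0.00456, stable). Timp1, an inhibitor of matrix metalloproteinases, is on the list of NF-kB and secreted inflammatory factors. It was read at 338, 297 and 362 CPM at 4 Gy and at 229.7, 198 and 204 CPM at 12 Gy (-0.66 ± 0.12, edgeR adjusted p = 0.00849). Timp1 passed in 5 of 6 refits (0.0609 without 12 Gy replicate 2). The 0 h control stood higher, at 414, 375 and 509 CPM, and cells 24 h after 12 Gy stood at 515, 573 and 584 CPM. An order from control to 12 Gy thus mixes dose with time. Pus7l, Trip13, S100a7a and Zfp672 made up the rest of the 10 largest falls, with log2 fold changes from -1.34 to -0.88, passing in 1, 1, 3 and 1 of 6 refits. Bnip2, Bzw2 and Rpl22l1, list members named beyond 4 in a list, and uncalled genes given beside called ones were outside the naming rule and were chosen after their values were seen.

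Calls in several further lists are given here, to be read beside 2.79% higher and 1.55% lower over all tested known genes. None of 28 cholesterol synthesis genes was called. Of 23 YAP targets 2 were called higher (Ccn1, 0.58 ± 0.16, 1 of 6 refits, and Ly6a, 1.24 ± 0.28, 3 of 6), and Ly6a is also an interferon-responsive surface protein. In the heat shock list 3 of 16 were called higher, Bag3, Cryab and Dnaja1 (0.71, 0.81 and 0.48, passing in 1, 2 and 0 of 6 refits), and Hspd1 lower. Of 21 sensors of cytosolic nucleic acids and their adaptors Zbp1 was the 1 call. Of 20 genes of NF-kB and secreted inflammatory factors, Cfb was called higher and Timp1 lower. Tie1, an endothelial receptor kinase, was the 1 call among 2 tested of 11 endothelial markers (1.21 ± 0.27, 2 of 6 refits). Flt1 (24 reads at 4 Gy, 20 at 12 Gy) and Eng (36 and 48) also had reads in all 6 libraries. Pecam1, Cdh5 and Kdr had at most 1 read over the 3 libraries of a dose. None of 10 tested fibroblast and mesenchymal markers was called, with a median of 0.08.

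Set beside the 0 h control, the called genes did not follow 1 order. With all genes scaled together, the 4 Gy mean lay between control and 12 Gy in 149 of the 268 genes called higher (55.6%), the control mean lay between the doses in 115, and the 12 Gy mean lay between the other means in 4. Of the 152 genes called lower, the 4 Gy mean was in the middle in 33 (21.7%), the control in 110 and 12 Gy in 9. With known genes scaled alone, the 4 Gy mean was in the middle in 99 of the 268 (36.9%) and in 68 of the 152 (44.7%), so this order depended on the scaling. Reads of loci without a reference gene were a larger share in the control (21.0% ± 1.03, SD, n = 3) than at 4 Gy (15.8% ± 0.947) or 12 Gy (14.7% ± 0.606). All 13 called interferon-stimulated genes had the 4 Gy mean in the middle, and all 5 called p53 targets had the control in the middle, under both scalings. The control was in the middle for 6 of 6 called ATF4 targets and 19 of 24 ribosome biogenesis genes with all genes scaled together, and for 4 and 17 with known genes scaled alone.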

How the data were processed

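Libraries were grouped by the dose and harvest time in the labels. Libraries followed an Illumina protocol per the labels, and cutadapt 1.9 and FastQC are named in the submitters' processing notes. The name under which the counts were deposited holds the letters ont, so whether the counted reads were short or long is not settled here. Which aligner, counter, build and annotation were used is not given in the sources used here. Whole-number read counts per gene and library were deposited by the authors, beside CPM per the file headers, which equals the count over the column total within 4.78e-06. The deposited fold changes and p-values were not used. Of 33636 lines, 11 overflow lines were dropped, leaving 22036 known genes, 10995 new loci and 594 long noncoding loci; 22022 of 22036 Ensembl identifiers matched a symbol. Gene positions and exon overlaps come from GENCODE M21 (GRCm38), and promoter sequences from RefSeq (GRCm38.p6).

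The test was edgeR's two-sided quasi-likelihood test (version 4.0.16, R 4.3.3), after filterByExpr and TMM, with 1 mean per group over 12 libraries, for all genes and for known genes scaled alone. The biological coefficient of variation was 0.144 and 0.125. Alternatives were DESeq2 1.42.0, RLE scaling, library totals, no filter or a filter at a mean of 5 CPM, the 6 libraries alone, a replicate block and leaving out each library. On simulated data the fit to all genes recovered 9.85% of 1.5-fold, 51.9% of 2-fold and 89.1% of 4-fold changes between 12 and 4 Gy at 48 h, with 3 to 7 false calls among 14682 genes. With known genes alone these were 27.8%, 73.1% and 98.8%, with 1 to 11 false calls among 9738. Few genes were changed in each draw and noise was independent between genes, so these rates need not hold for the data. The rule named the 10 largest rises and falls among genes called in both fits with groups that do not overlap and at least 5 CPM in the higher group, up to 4 called members of each list, and Cdkn1a, Mdm2, Trp53, Zbp1, Casp1, Casp4, Gsdmd, Gsdme and Txnip. The comparison, the lists and the rule were chosen with earlier results of these data known, and 9 of the 38 lists were added after values of the fit had been seen. Results for a few genes are not reported here.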

Additional observations from a re-analysis of the deposited data

How the results depend on the processing

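Counts of calls depended strongly on single libraries. In the fit to all genes, 331 higher and 376 lower calls became 41 to 213 and 36 to 241 when 1 library was left out, and in the fit to known genes alone 286 and 316 became 41 to 233 and 26 to 240; the lowest counts came without 12 Gy replicate 2. Without a filter the counts were 537 and 576 (all genes) and 506 and 484 (known genes). With library totals as the scaling they were 574 and 264, and 532 and 142, and the median of known genes scaled alone moved from 0.01 to 0.12, with 68.5% and 78.9% of calls higher. With DESeq2 34.3% of known-gene calls were higher (211 and 404). Fitting the 6 libraries alone gave 499 and 472, and 586 and 567. RLE scaling and a mean of at least 5 CPM left the counts within 1.5 times. The cause of these shifts was not tested. The replicate block gave 232 and 282 calls over all genes and 227 and 272 with known genes alone, and 14 of the 99 genes named by the rule were no longer called. Same-numbered libraries of the 2 doses did not deviate together over all genes (r = -0.07, -0.23 and -0.23) or with known genes alone (0.02, -0.13 and -0.06). With 3 libraries per group these values cannot exclude a shared culture or batch. Across the refits of the 99 named genes, the 1 change of sign was Gsdmd, an uncalled gene, which ran from -0.62 (without 12 Gy replicate 2) to 0.12 (without 12 Gy replicate 1). Medians kept their sign under every alternative to the fit to all genes for the lists of NRF2 targets, interferon-stimulated, endoplasmic reticulum, immediate early, Golgi, lysosome, autophagy, p53, MHC class I, ribosome biogenesis, ribosomal protein and one-carbon genes. In the simulation most 1.5-fold changes were missed, but few genes were changed in each draw. In the data 21.5% of tested genes had an unadjusted edgeR p under 0.05, and the median size of called falls was 0.56 on the log2 scale. Recovery of 1.5-fold changes in the data themselves was not measured.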

Other observations

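The 4898 tested loci without a reference gene, whose calls are given above, had a median log2 fold change of -0.19; of 379 long noncoding loci 11 were called higher and 6 lower. Against the 0 h control the median of the new loci was -0.91 at 12 Gy and -0.70 at 4 Gy, in contrasts that share libraries with the comparison of doses.

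Some of the largest fold changes among known genes were not called. Sap18b was read at 6.02 and 4.70 CPM in 12 Gy replicates 1 and 3 and at 0 in 12 Gy replicate 2 and in all 4 Gy libraries (edgeR adjusted p = 0.103). Ube2s, the ubiquitin-conjugating enzyme that extends chains for the anaphase-promoting complex, stood at 2.08, 3.70 and 0.540 CPM at 4 Gy and 25.1, 14.01 and 22.7 CPM at 12 Gy, with no overlap (edgeR adjusted p = 0.0989), and at 30.7, 1.02 and 4.02 CPM in the control. Rnaset2b split within groups: 24.7, 23.7 and 0.809 CPM at 4 Gy and 0.262, 0.764 and 7.58 CPM at 12 Gy (edgeR adjusted p = 0.185). Sap18b and Rnaset2b have near copies in the genome, so the assignment of their reads is uncertain. Ube2s shares exons with the ribosomal protein gene Rpl28, and the strand of counting is not given. Reads of Ube2s therefore cannot be assigned with certainty either. These genes were chosen after their values were seen.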
